A study of Mus musculus with 32 samples.

Results

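The interferon-inducible poly(ADP-ribose) polymerase (PARP) genes and Dtx3l were chosen by name: Parp9, Dtx3l, Parp14, Parp10 and Parp12 as inducible members, and Parp1 and Parp2 as members of the family taken as non-inducible. All 7 were among the 21829 mouse genes of the table. The cells were EL08-1D2, an established mouse mesenchymal stromal cell line, for which the labels give no further genotype. The groups were 16 libraries of cells left without azacitidine and 16 of cells treated with azacitidine, a cytidine analogue that is built into nucleic acids and lowers DNA methylation. The labels used here give neither dose nor time and do not tell whether each library was its own culture. The p-values therefore measure the spread between these libraries, which may be technical. What was counted were unique molecular identifiers (UMIs), which count each captured RNA molecule once, and n = 16 per group holds below unless stated otherwise.

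PARP enzymes transfer ADP-ribose from NAD+ to proteins and nucleic acids. Parp1 and Parp2 sense DNA breaks and build long chains of ADP-ribose at them, whereas Parp10, Parp12 and Parp14 add single units. Type I interferons raise Parp9, Parp10, Parp12, Parp14 and Dtx3l through transcription factors that include STAT2 and IRF9, and PARP9 works as a heterodimer with the ubiquitin ligase DTX3L.

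Parp9 and Dtx3l were the members called as higher with azacitidine in the fit over single libraries, by 1.42-fold and 1.38-fold. Parp10 and Parp2 did not pass the test, nor did Parp1, whose level lay lower with the drug, and Parp14 and Parp12 had too few UMIs for the test. The log2 fold changes of Parp9 and Dtx3l, 0.51 and 0.46, lay within the range of other interferon-stimulated genes, 0.40 to 2.32, and below its median of 1.28. Some genes of that list may have passed the filter on counts through the treated libraries. For both Parp9 and Dtx3l the change was largest in the libraries numbered 1 to 4, at 2.10-fold and 1.60-fold. In the other runs Parp9 differed 1.07-fold to 1.36-fold and Dtx3l, which was more even, 1.29-fold to 1.32-fold. A difference between runs was called for neither gene. The call of Dtx3l lay at the threshold, and it was lost whichever run of 4 replicate numbers was left out. Without numbers 1 to 4 Parp9 was not called either. With run as a term over single libraries both genes were called (edgeR, adjusted p = 0.0011 and 0.025). With UMIs pooled per run and a run term neither was (edgeR, adjusted p = 0.10 and 0.13). Neither was called with a correlation within runs (limma-voom, adjusted p = 0.075 and 0.62).

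In the mouse genome build mm10 (GENCODE release M21) 3 of the members lie in a block of 139.7 kb on chromosome 16. Parp14 (ENSMUSG00000034422) spans 35832874 to 35871544 on the minus strand, Dtx3l (ENSMUSG00000049502) 35926511 to 35939151 on the minus strand, and Parp9 (ENSMUSG00000022906) 35938470 to 35972605 on the plus strand. Parp9 and Dtx3l point away from each other with annotated starts 681 bp apart, and exons at their starts share 458 bases on opposite strands. Whether strand was kept in counting is not stated, so UMIs from that stretch could not be assigned to either gene with certainty. Parp10 (ENSMUSG00000063268) lies on chromosome 15 at 76231174 to 76243441, Parp12 (ENSMUSG00000038507) on chromosome 6 at 39086410 to 39118349, Parp1 (ENSMUSG00000026496) on chromosome 1 at 180568924 to 180601254 and Parp2 (ENSMUSG00000036023) on chromosome 14 at 50807841 to 50821301. The end of Parp10 shares 205 exon bases with the start of Plec on the same strand, so UMIs there could belong to either gene.

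Promoter windows were found in RefSeq (GRCm38.p6) for 4 of the members, namely Dtx3l, Parp12, Parp1 and Parp2, and not for Parp9, Parp14 and Parp10. The windows reach from 250 bases before to 50 after the start used for each window. For Dtx3l, Parp1 and Parp2 this is not the GENCODE start given above. Those of Dtx3l, the called member with a window, and of Parp1, its comparison, are shown because azacitidine lowers methylation at CG dinucleotides, which are in capitals. The window of Dtx3l is chr16:35938978-35939277 on the minus strand and that of Parp1 chr1:180568641-180568940 on the plus strand, each written 5′ to 3′.
Dtx3l: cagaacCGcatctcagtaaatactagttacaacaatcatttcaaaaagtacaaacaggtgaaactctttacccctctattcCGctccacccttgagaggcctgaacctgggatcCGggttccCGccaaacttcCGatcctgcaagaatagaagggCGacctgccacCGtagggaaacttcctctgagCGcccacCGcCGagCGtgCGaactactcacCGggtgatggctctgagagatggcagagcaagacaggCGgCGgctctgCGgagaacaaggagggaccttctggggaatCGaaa
Parp1: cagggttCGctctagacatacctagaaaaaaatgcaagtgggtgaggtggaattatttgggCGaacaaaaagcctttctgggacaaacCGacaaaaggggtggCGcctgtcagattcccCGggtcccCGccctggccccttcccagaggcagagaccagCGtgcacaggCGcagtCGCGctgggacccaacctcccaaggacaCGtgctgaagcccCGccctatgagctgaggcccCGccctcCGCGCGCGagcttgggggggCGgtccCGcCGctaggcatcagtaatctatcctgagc
The window of Dtx3l held 17 CG dinucleotides, that of Parp1 20, that of Parp2 25 and that of Parp12 46, against a median of 7 over all 32851 windows. All 4 windows therefore lay above that median. DNA methylation itself was not measured. A search of both strands for the core of the interferon-stimulated response element (ISRE) found 0 matches in each of the 4 windows. Of all windows 3.44% held it. Of 15 other listed interferon-stimulated genes with a window 5 held it.

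Libraries without azacitidine held 818619 to 3210801 UMIs and libraries with it 1226861 to 5039721. Libraries of 1 group whose replicate numbers fall in the same run of 4 (1 to 4, 5 to 8, 9 to 12, 13 to 16) varied together, with a correlation of 0.32 over genes (limma-voom), and the labels do not explain the runs. In numbers 1 to 4 the libraries with azacitidine were also deeper, with a mean of 3893053 against 2022180 UMIs. Of 8 stromal markers Col1a1, Col1a2, Col3a1, Pdgfra, Pdgfrb, Vcam1 and Cxcl12 were measured in both groups, and Thy1 had 0 UMIs over all untreated and 26 over all treated libraries. The list came to 7712 to 10337 summed CPM (the UMI count scaled to the library total) without and 4993 to 8018 with azacitidine. Of 9 blood and macrophage markers in the table the 3 that could be tested, Cd68, Cd14 and Cd53, rose, and the list summed to 23.7 to 48.8 CPM without and 37.6 to 63.4 with azacitidine. The defining marker Ptprc had 1 and 4 UMIs in all libraries without and with azacitidine, Adgre1 0 and 1, and Cd79a 0 and 8. Among those also too low to be tested, mean Itgam went from 5.63 to 4.47 CPM and Lyz2 from 0.55 to 0.28. Csf1r went the other way, from 0.84 to 1.24 CPM. The endothelial markers Pecam1, Cdh5 and Tek were too low to be tested, and they summed to at most 1.05 CPM without and 2.97 with azacitidine. Among 4 epithelial markers Krt8 and Krt18 rose and Epcam had 0 and 1 UMIs, and the list summed to 1.46 to 6.21 and 60.2 to 129.6 CPM. Krt8 and Krt18 had 50 and 36 UMIs over all untreated libraries and passed the filter on counts through the treated ones. That they could be tested thus already rested on their rise. The 3 plasmacytoid dendritic cell markers in the table, Bst2, Irf7 and Tcf4, summed to 66.8 to 104.4 and 75.1 to 208.2 CPM, and Bst2 and Irf7, which interferon also induces, rose. Col1a1, Col1a2 and Col3a1 fell and Vcam1 rose, but under spike-in scaling none of these 4 was called (edgeR, log2 fold changes of -0.06, -0.08, -0.33 and 0.51, adjusted p = 0.79, 0.74, 0.26 and 0.14). The part of other cells in the results below was not tested, and in bulk RNA fewer cells of a kind cannot be told apart from less RNA per cell.

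Parp9 encodes a macrodomain protein that binds ADP-ribose and has little or no transferase activity of its own. Its level ran from 12.0 to 21.8 CPM without azacitidine, with a median of 16.3, and from 14.4 to 34.2 with it, with a median of 22.5. The groups overlapped, but 9 of the 16 treated libraries lay above the highest untreated library, and none lay below the lowest. The mean rose from 16.9 ± 3.1 to 23.5 ± 6.1 CPM (SD), a log2 fold change of 0.51 (SE 0.12, 95% interval 0.28 to 0.75; edgeR quasi-likelihood test, adjusted p = 0.0036). Of all 9344 tested genes 3.65% were called as higher and 2% as lower, and the median log2 fold change was 0.00.

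Dtx3l encodes the E3 ubiquitin ligase that partners PARP9. Untreated libraries held 6.31 to 16.7 CPM with a median of 9.39, and treated libraries 8.85 to 22.7 with a median of 12.9. Again the ranges overlapped, with 6 treated libraries above every untreated library and 15 of 16 above the untreated median. The mean rose from 10.6 ± 3.3 to 14.6 ± 4.3 CPM (SD), a log2 fold change of 0.46 (SE 0.14, 95% interval 0.17 to 0.76; edgeR, adjusted p = 0.049). This call is marginal. With genes filtered at a mean of 5 UMIs the adjusted p was 0.051 (edgeR), and leaving out each run in turn gave 0.28, 0.066, 0.11 and 0.10 (edgeR). Over 20 other settings it lay between 0.017 and 0.67, and the call held in 8.

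Parp14 and Parp12 were below the filter on counts and stayed out of the main test. Parp14, a macrodomain transferase known as a partner of STAT6, had 1 to 16 UMIs per library without azacitidine (median 5) and 3 to 33 with it (median 11.5). Over all libraries this was 96 and 217 UMIs, and 3.51 ± 1.74 and 5.64 ± 2.51 CPM (mean ± SD). Treated libraries lay above the untreated median in 13 of 16 cases, and the groups overlapped. Without the filter its log2 fold change was 0.69 and missed the threshold (edgeR, adjusted p = 0.059). Parp12, a zinc-finger transferase with antiviral activity, had 0 to 10 UMIs per library without (median 3) and 0 to 23 with azacitidine (median 4.5), 50 and 108 in all. Its level was 1.74 ± 0.98 and 2.56 ± 1.36 CPM, and without the filter the log2 fold change of 0.57 did not pass (edgeR, adjusted p = 0.40). Its groups overlapped, with 1 library at 0 in each, and the mean count was 3.12 and 6.75 UMIs per library.

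Parp10, a transferase that adds single ADP-ribose units and binds ubiquitin, was the inducible member with the most UMIs. It ran from 34.3 to 56.6 CPM without azacitidine (median 43.5) and from 37.5 to 63.6 with it (median 49.5). The ranges overlapped, with 3 treated libraries above every untreated one, among them numbers 1 and 2 at 62.3 and 63.6 CPM. Its mean was 43.4 ± 6.1 and 49.1 ± 7.9 CPM, and the log2 fold change of 0.20 (SE 0.08, 95% interval 0.04 to 0.35) was not called (edgeR, adjusted p = 0.15). Plec, which shares exon bases with it, had a log2 fold change of -0.06 (SE 0.09; edgeR, adjusted p = 0.79).

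Parp1, the main DNA break sensor of the family, ran from 26.1 to 42.9 CPM without (median 33.0) and from 23.0 to 45.2 with azacitidine (median 29.0). Only 2 treated libraries lay above the untreated median. The mean was 33.7 ± 4.8 and 29.7 ± 5.0 CPM, and the log2 fold change of -0.17 (SE 0.08, 95% interval -0.34 to -0.01) was not called (edgeR, adjusted p = 0.25). Under spike-in scaling, where the median log2 fold change over all genes shifted by 0.31, it was 0.11. Parp2, which shares the break-sensing role, ran from 32.2 to 49.4 CPM without (median 38.3) and from 32.7 to 46.9 with azacitidine (median 40.5). Its mean was 39.4 ± 5.6 and 39.5 ± 4.9 CPM, a log2 fold change of 0.00 (SE 0.07, 95% interval -0.14 to 0.15; edgeR, adjusted p = 1.00). In none of the 7 members were the groups free of overlap, a separation that 0.278% of the tested genes showed with azacitidine higher.

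**Figure D1:**
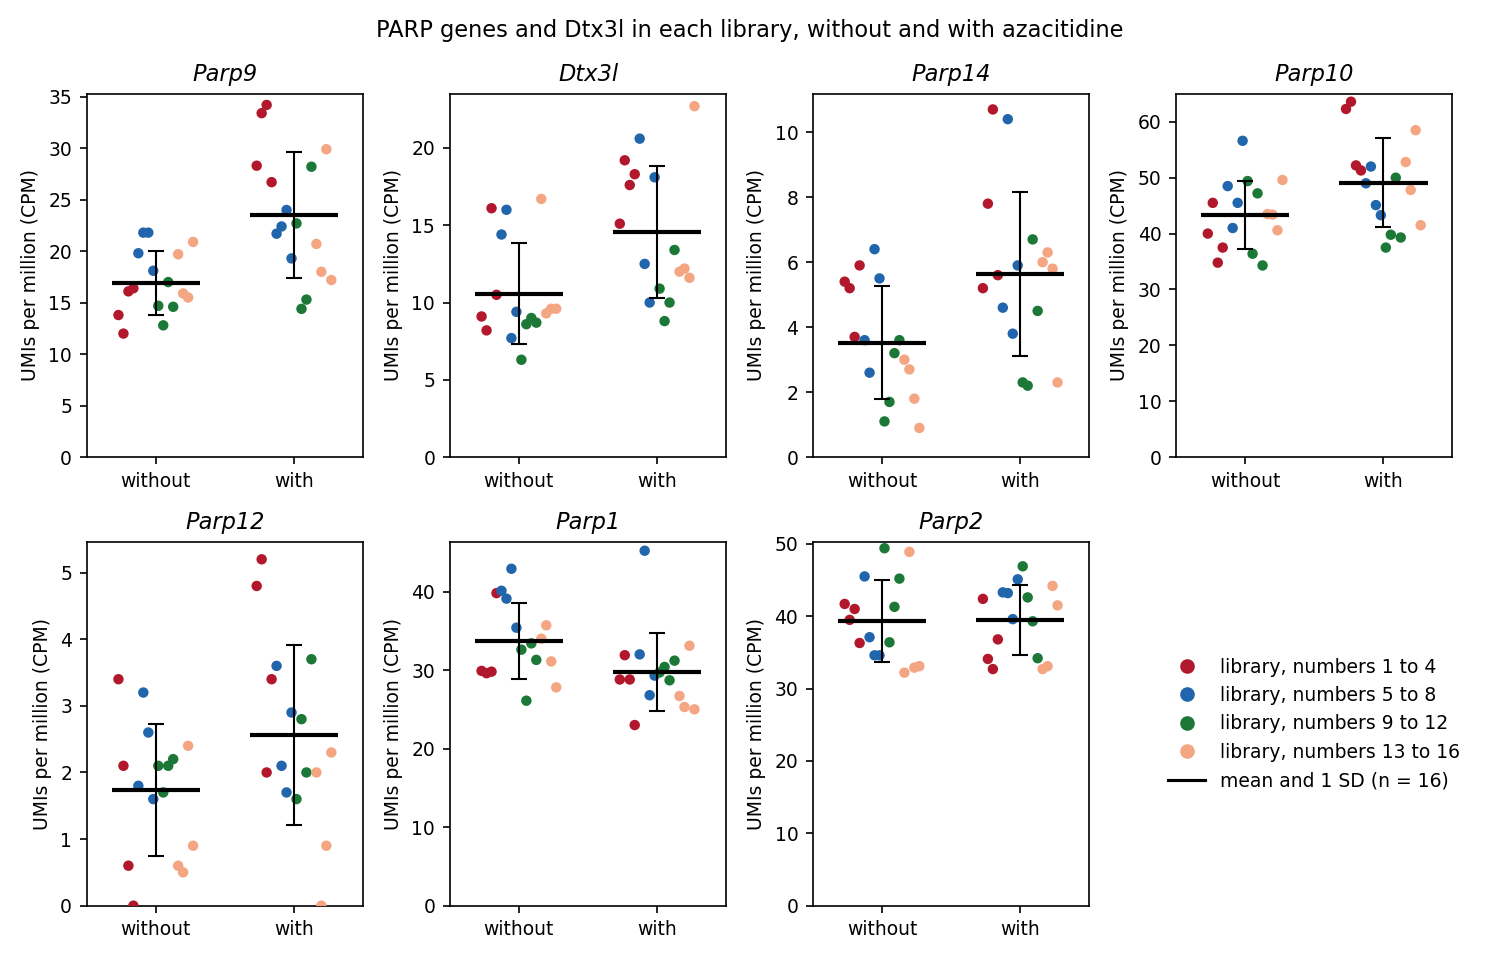
Level of each member in CPM (linear axes from 0) in both groups of 16. Each point is a library coloured by its replicate number, with wide bars for means and whiskers for 1 SD; the 2 highest treated libraries of Parp9 and of Parp10 carry numbers within 1 to 4, and the groups overlap in all 7 panels.

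Whether members responded by different amounts was tested on the ratio of their levels within a library, which does not depend on scaling. Of the 21 pairs 7 passed the threshold (permutation test, 100000 resamples, two-sided, Benjamini-Hochberg adjusted over the 21 pairs). Against Parp1 the ratio rose for 4 of the 5 inducible members. On the log2 scale the ratio of Parp9 to Parp1 went from -0.96 ± 0.20 to -0.35 ± 0.39 (SD), a difference of 0.61 (SE 0.11; permutation test, adjusted p = 0.00042). The differences were 0.60 (SE 0.15) for Dtx3l, 0.75 (SE 0.19) for Parp14 and 0.35 (SE 0.09) for Parp10 (permutation tests, adjusted p = 0.0036, 0.0036 and 0.0050). Parp12 to Parp1 differed by 0.54 (SE 0.23) and missed the threshold (permutation test, adjusted p = 0.056), but passed it when permuted within runs (adjusted p = 0.047). With a prior count of 0.5 the difference of Parp12 was 0.69 (permutation test, adjusted p = 0.14) and that of Parp14 0.87. Each of these differences includes that of Parp1 itself, whose log2 fold change was -0.17.

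Against Parp2 the log2 ratio rose by 0.42 (SE 0.15) for Parp9 and by 0.42 (SE 0.16) for Dtx3l (permutation tests, adjusted p = 0.030 and 0.046). Parp14, Parp12 and Parp10 gave 0.56 (SE 0.23), 0.36 (SE 0.22) and 0.17 (SE 0.11), without a call (permutation tests, adjusted p = 0.056, 0.19 and 0.21). The ratio of Parp14 to Parp2 passed when permuted within runs and with a prior count of 0.5 (permutation tests, adjusted p = 0.026 and 0.0499). Parp9 also rose relative to Parp10, by 0.26 (SE 0.10; permutation test, adjusted p = 0.046). For the partners Parp9 and Dtx3l no difference was found: their log2 ratio was 0.66 ± 0.34 without and 0.66 ± 0.44 with azacitidine, a difference of 0.00 (SE 0.14; permutation test, adjusted p = 0.98). Parp1 and Parp2 differed from each other by -0.18 (SE 0.09) on the same scale, which was not called (permutation test, adjusted p = 0.10). Without numbers 1 to 4 the ratios of Parp9, Dtx3l and Parp14 to Parp1 still passed, with differences of 0.40, 0.52 and 0.79, and the other 4 calls were lost. With every library thinned to 818619 UMIs 0 of the 21 pairs passed (permutation tests), at differences of 0.41, 0.37 and 0.71 for the same ratios.

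**Figure D2:**
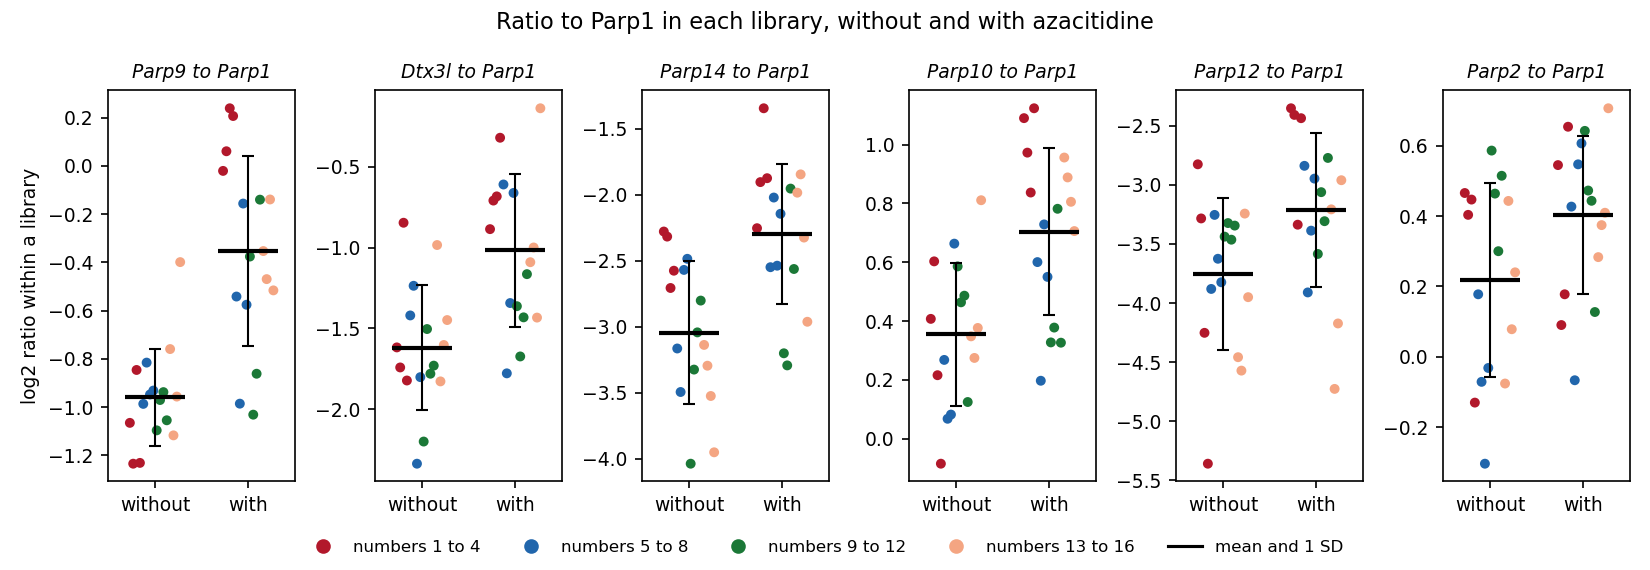
Log2 ratio of each other member to Parp1 within each library, without and with azacitidine. Points are libraries coloured by replicate number, wide bars are means and whiskers 1 SD; the ratio of Parp9 moves from a mean of -0.96 to -0.35 and that of Parp10 from 0.36 to 0.70.

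The response of Parp9 was then followed over the runs of replicate numbers. In numbers 1 to 4 Parp9 stood at 13.8, 12.0, 16.1 and 16.4 CPM without and at 28.3, 33.4, 34.2 and 26.7 with azacitidine. All 4 treated libraries lay above all 4 untreated ones, and the means of 14.6 ± 2.1 and 30.7 ± 3.7 CPM (SD, n = 4) differed 2.10-fold. Within this run edgeR called Parp9 (adjusted p = 0.0019, 4 against 4 libraries), as it did 1.96% of genes as higher. In the other runs the fold of the means was 1.07 (numbers 5 to 8), 1.36 (9 to 12) and 1.19 (13 to 16), without a call (edgeR, adjusted p = 0.78, 0.55 and 0.53), where 3.25%, 1.04% and 2.26% of genes were called as higher. Untreated Parp9 was highest in numbers 5 to 8, at 20.4 ± 1.8 CPM (SD, n = 4).

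Parp10 was also highest in the treated libraries of numbers 1 to 4. Its mean there was 39.4 ± 4.6 without and 57.4 ± 6.5 CPM with azacitidine (SD, n = 4) with no overlap, and it missed the threshold (edgeR, adjusted p = 0.056). Its fold of the means was 0.99, 1.00 and 1.13 in the later runs. Dtx3l was more even, with folds of 1.60, 1.29, 1.32 and 1.30 in the 4 runs, none of them called within a run (edgeR, adjusted p = 0.13, 0.68, 0.70 and 0.70). For Parp14 the folds were 1.46, 1.37, 1.64 and 2.44, on 14 and 38 UMIs in the last run. For Parp12 they were 2.52, 1.13, 1.24 and 1.19, and 62 of its 108 UMIs with azacitidine came from numbers 1 to 4. Parp1 was at 0.87, 0.85, 0.97 and 0.86 of its untreated mean in the 4 runs, and Parp2 at 0.92, 1.13, 0.95 and 1.03.

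The difference between runs was tested as an interaction of run and azacitidine. Of the 5 tested members 0 passed (edgeR), against 3.02% of all tested genes, and 2 had an unadjusted p under 0.05: Parp9 (adjusted p = 0.066) and Parp10 (adjusted p = 0.22). Dtx3l had an adjusted p of 0.80 (edgeR). When numbers 1 to 4 were left out, the log2 fold change of Parp9 was 0.28 and that of Dtx3l 0.33, and neither was called (edgeR, adjusted p = 0.18 and 0.28). In earlier results of these data 5 libraries stood apart. Leaving them out, numbers 1 and 2 without and 1, 2 and 4 with azacitidine, gave 0.36 and 0.32 (edgeR, adjusted p = 0.062 and 0.29). When UMIs were pooled per run within a group (4 pools a side) and run was a term of the fit, Parp9 gave 0.51 and Dtx3l 0.41 on the log2 scale, and neither was called (edgeR, adjusted p = 0.10 and 0.13), where 2.56% of genes were called as higher. With run as a term over single libraries both were called (edgeR, adjusted p = 0.0011 and 0.025), as were 6.03% of genes as higher.

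**Figure D3:**
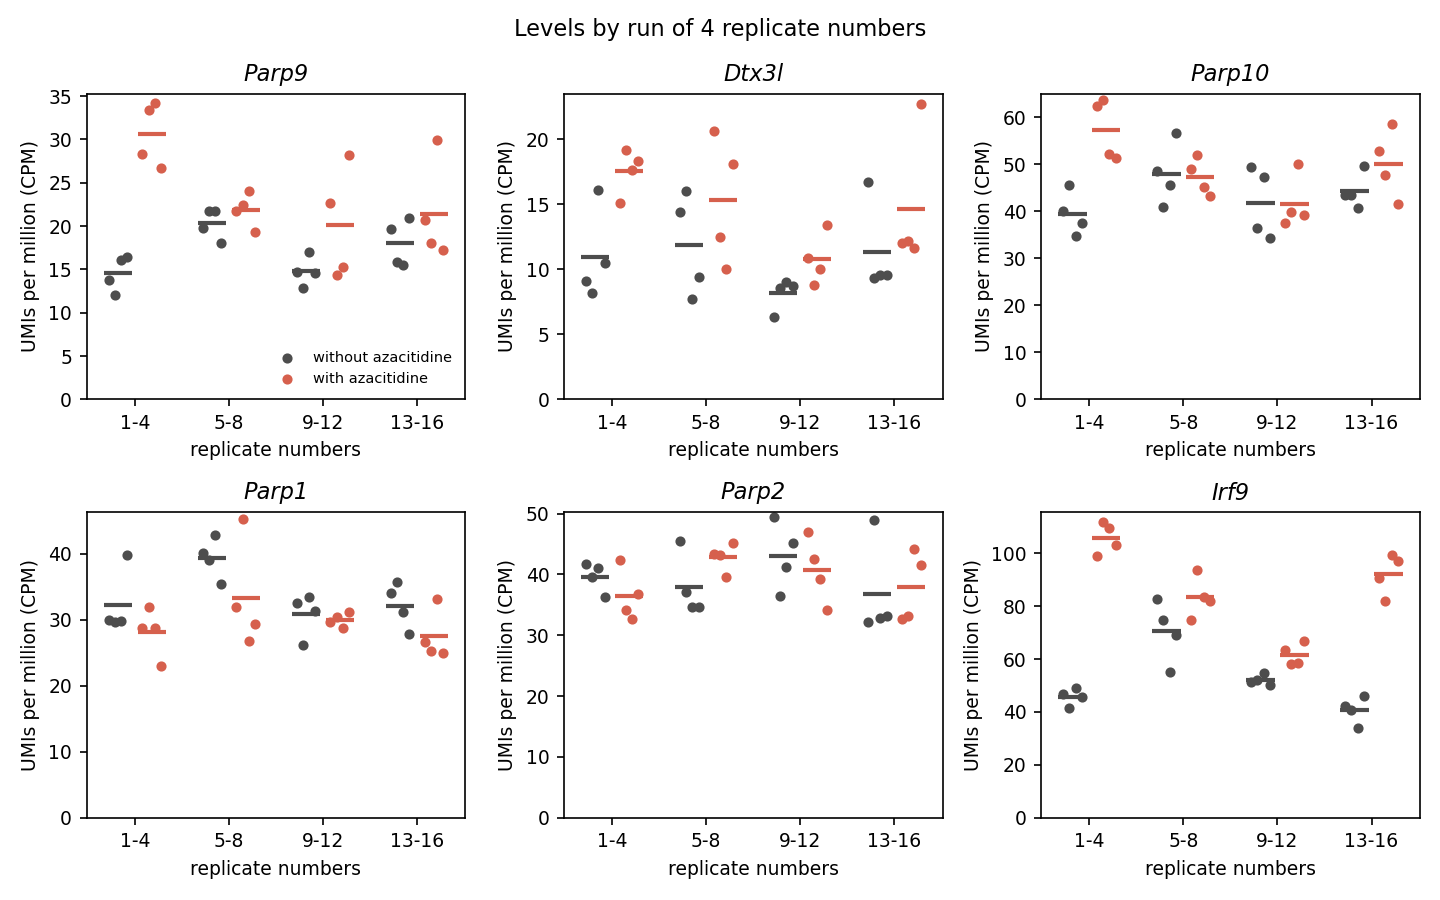
Level in CPM (linear axes from 0) of 5 members and of Irf9 by run of 4 replicate numbers. Points are libraries without (grey) and with (red) azacitidine and bars are means of 4; Parp9, Parp10 and Irf9 do not overlap in numbers 1 to 4, and in numbers 5 to 8 all of them do.

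Of a list of interferon signalling genes, Irf9 and Stat2 rose. Irf9, a DNA-binding subunit of the type I interferon response complex, rose from 52.3 ± 13.0 to 85.8 ± 17.5 CPM (SD), a log2 fold change of 0.72 (SE 0.11; edgeR, adjusted p = 9.9e-06). Stat2, which binds IRF9 in that complex, rose from 39.9 ± 6.8 to 55.1 ± 8.4 CPM, by 0.48 (SE 0.08) on the log2 scale (edgeR, adjusted p = 7.2e-05). Of the 10 genes of this list that were tested and are reported, 2 rose and 0 fell, and the median of their log2 fold changes was 0.03. Over all tested genes 3.65% were called as higher and 2% as lower. The receptor chains Ifnar1, Ifnar2, Ifngr1 and Ifngr2, the kinases Jak1 and Tyk2, and Stat6 and Irf1 were not called. In the fit of pools per run Irf9 missed the threshold (edgeR, adjusted p = 0.27) and Stat2 passed it (0.042). By run the means of Irf9 differed 2.31-fold, 1.18-fold, 1.18-fold and 2.26-fold, and those of Parp9 2.10-fold, 1.07-fold, 1.36-fold and 1.19-fold. In numbers 13 to 16 Irf9 stood at 40.8 ± 5.0 without and 92.2 ± 7.8 CPM with azacitidine (SD, n = 4). Parp9 stood there at 18.0 ± 2.7 and 21.5 ± 5.8 CPM. Whether Parp9 and Irf9 differ in their course over the runs was not tested.

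Of a list of 17 other interferon-stimulated genes all 15 that were tested rose, where 3.65% of all tested genes were called as higher. Their log2 fold changes ran from 0.40 to 2.32 around a median of 1.28 (edgeR, adjusted p from 5.8e-15 to 0.018). The largest was that of Psmb8, an immunoproteasome subunit, at 2.32 (SE 0.15). Usp18, which removes ISG15 from proteins, rose by 1.65 (SE 0.19), Rtp4 by 1.62 (SE 0.19), Ifit1, which binds foreign RNA, by 1.80 (SE 0.21), Herc6, the mouse ISG15 ligase, by 1.07 (SE 0.14), and Isg15 itself by 1.71 (SE 0.24). Parp9 at 0.51 and Dtx3l at 0.46 lay near the low end, close to Uba7 at 0.50, Samd9l at 0.55 and Trim25 at 0.40. The list was fixed with earlier results known and is no independent sign of its direction. Bst2, Herc6 and Psmb8 had low mean levels without azacitidine, at 4.32, 5.27 and 6.20 CPM, against 7.71, 10.5 and 31.4 with it. Such genes may have passed the filter on counts through the treated libraries, where they are high. The range and median of the list may therefore rest partly on the filter.

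Of 10 further PARP family genes 9 were tested. In either direction 0 were called by edgeR, DESeq2 or limma-voom. Over all tested genes edgeR called 5.65%, a share at which 0 of 9 is no result about the family. The log2 fold changes of the 9 ran from -0.36 to 0.19 with a median of -0.06, and 2 had an unadjusted p under 0.05 (edgeR). Zc3hav1, the antiviral zinc-finger protein also known as PARP13, stood at 47.7 ± 9.4 and 53.8 ± 8.0 CPM, a log2 fold change of 0.19 (SE 0.08; edgeR, adjusted p = 0.23). Tiparp, an aryl hydrocarbon receptor target, had a log2 fold change of -0.06 (SE 0.11), the tankyrase gene Tnks -0.36 (SE 0.16) and Parp3 0.13 (SE 0.10), none of them called.

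Over 5 lists of the wider ADP-ribose system 2 of 38 tested genes, or 5.26%, were called in either direction, near the 5.65% of all tested genes. Of 6 tested genes that remove ADP-ribose 0 were called, and Parg, the main chain-degrading hydrolase, had a log2 fold change of -0.30 (SE 0.17; edgeR, adjusted p = 0.39). Of 7 readers of ADP-ribose 0 were called, with a median of 0.00. Of 3 tested genes of the DTX family other than Dtx3l 0 were called, at 0.17 (SE 0.08) for Dtx2, 0.11 (SE 0.11) for Dtx3 and 0.02 (SE 0.09) for Dtx4. In each of these 3 lists DESeq2 and limma-voom also called 0, and 1 gene had an unadjusted p under 0.05 (edgeR). Of 10 tested genes of NAD synthesis and use 1 rose: Naprt, which starts NAD synthesis from nicotinic acid, by 0.50 (SE 0.14; edgeR, adjusted p = 0.029). In the fit of pools per run Naprt missed the threshold (edgeR, adjusted p = 0.067). DESeq2, which left more genes in the test, called Naprt and also Qprt (1 and 24 UMIs in all; adjusted p = 0.019). Of 12 repair partners of Parp1 and Parp2 1 fell: Tdp1, which clears trapped topoisomerase from DNA ends, with a log2 fold change of -0.29 (SE 0.08; edgeR, adjusted p = 0.027). Spike-in scaling turned Tdp1 to 0.04, and it missed the threshold without the filter and in the fit of pools per run (edgeR, adjusted p = 0.062 and 0.20). DESeq2 and limma-voom called Tdp1 and also Apex1, a base excision nuclease, at log2 fold changes of -0.17 and -0.17 (adjusted p = 0.032 and 0.0497), which edgeR did not (adjusted p = 0.051). Spike-in scaling turned Apex1 to 0.13. Hpf1, the cofactor that directs PARP1 to serine, had a log2 fold change of 0.08 (SE 0.05) without a call.

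**Figure D4:**
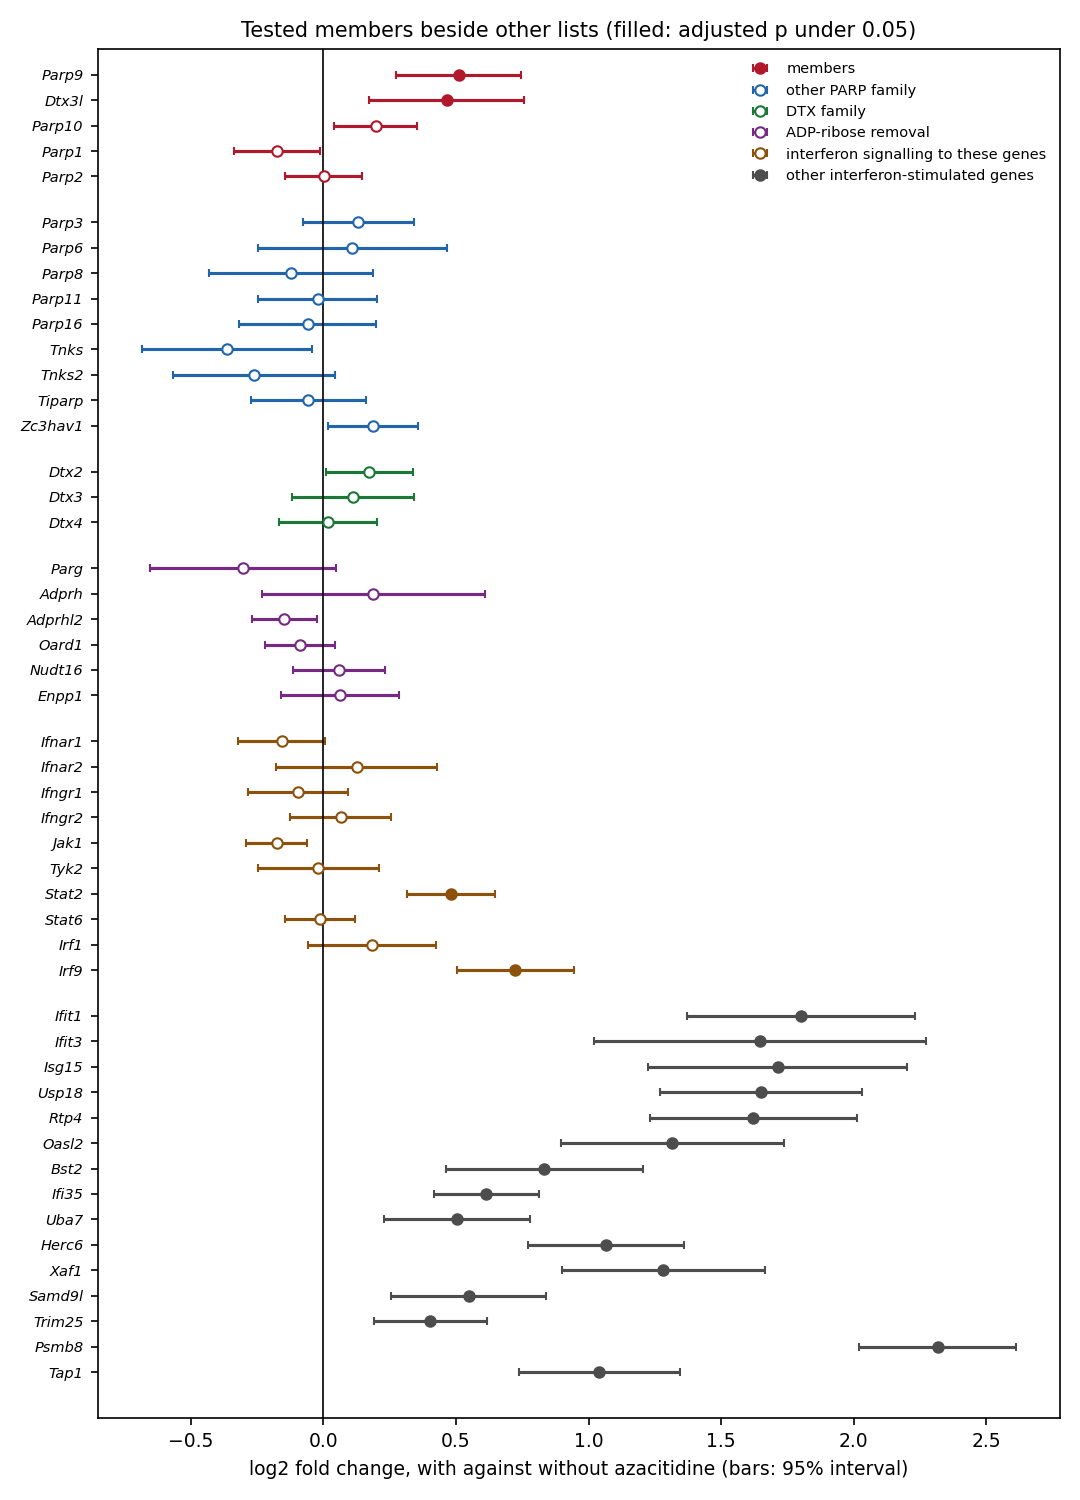
Log2 fold change with against without azacitidine of the 5 tested members and of 5 lists, with 95% intervals from edgeR. Filled points passed an adjusted p under 0.05; Parp9 and Dtx3l lie at 0.51 and 0.46, other PARP genes between -0.36 and 0.19, and other interferon-stimulated genes between 0.40 and 2.32.

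Around the chromosome 16 block 5 neighbouring genes could be tested, and 0 were called or had an unadjusted p under 0.05 (edgeR). Over all tested genes 5.65% were called in either direction. Hspbap1, 4.4 kb beyond Parp14, had 12.9 and 13.6 CPM on average and a log2 fold change of 0.09 (SE 0.09, 95% interval -0.10 to 0.27; edgeR, adjusted p = 0.71). Kpna1, 6.1 kb beyond Parp9, had 37.3 and 35.4 CPM and a log2 fold change of -0.08 (SE 0.11, 95% interval -0.31 to 0.15; edgeR, adjusted p = 0.79). Gm15564, an antisense transcript that overlaps the end of Parp9 without sharing exon bases, had 45 UMIs without and 95 with azacitidine and was too low to be tested.

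The 3 members of chromosome 16 were also correlated within each group, over libraries that share depth and run. Of the 6 relations 0 passed after adjustment, and by Spearman's rho 1 had an unadjusted permutation p under 0.05. The partners Parp9 and Dtx3l had r = 0.47 without azacitidine (Pearson, permutation p = 0.065, adjusted p = 0.22) and rho = 0.51 (Spearman, permutation p = 0.046, adjusted p = 0.28). With azacitidine they had r = 0.33 (permutation p = 0.20, adjusted p = 0.41) and rho = 0.25 (permutation p = 0.35, adjusted p = 0.70). Without the 2 libraries farthest from the median of Dtx3l, r was 0.52 and 0.63, and with run means subtracted 0.41 and -0.06. Parp9 and Parp14 had r = -0.02 without and 0.46 with azacitidine, with rho = 0.03 and 0.28, and Dtx3l and Parp14 had r = 0.09 and 0.18, with rho = -0.05 and 0.19. For these 4 the permutation p ran from 0.075 to 0.94 by r and from 0.30 to 0.93 by rho, and the adjusted p from 0.22 to 0.94 by r and from 0.70 to 0.93 by rho.

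The genes whose course over the 16 untreated libraries was most like the mean of the 5 inducible members were Mat2a, Itpa, Mrpl49, Vps13a, Taf5l, Tnnt2, Lrrfip1 and Xaf1, with Pearson r from 0.80 to 0.89 among 9339 genes ranked. These values describe libraries that share depth and run. The mean weighs the 5 members equally, among them Parp14 and Parp12 with medians of 5 and 3 UMIs per untreated library. Whether the leading values exceed what so many ranked genes would give was not tested. Over the 16 treated libraries Xaf1, an interferon-stimulated gene, had r = 0.79 and rank 18, and Itpa 0.69, while the others lay between -0.40 and 0.37. Of the 8 leading genes Xaf1 alone was called with azacitidine, at a log2 fold change of 1.28 (SE 0.19; edgeR, adjusted p = 1.1e-05). Over the treated libraries, a list added after its values were seen, the 8 most like genes were others: H2-T22, Lactb, Phlda3, Rilpl2, Ifit3, Ifit1, Zdhhc1 and H2-T10, with r from 0.81 to 0.87. Of these H2-T22, Ifit3, Ifit1 and H2-T10 rose with azacitidine (edgeR, log2 fold changes of 0.74, 1.65, 1.80 and 0.83) and the other 4 were not called.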

How the data were processed

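PolyA RNA of 32 libraries was made into UMI libraries by the method of Parekh et al. with the Nextera XT kit, per the labels' protocols. The authors deposited whole-number UMI counts per gene. STAR 2.4.0, bedtools 2.17.0 and the build mm10 are listed, without their roles, per the submitters' processing notes. The annotation used for counting, use of strand and UMI handling are not given in the sources used here. Groups and replicate numbers came from the titles and treatment labels. The 68 spike-in rows (0.106% of UMIs) stayed out of library sizes and tests. In edgeR 4.0.16 (R 4.3.3), TMM factors, filterByExpr and a robust quasi-likelihood fit of azacitidine were run over all 32 libraries, with Benjamini-Hochberg adjustment and a threshold of 0.05. The filter kept 9344 genes with 98.8% of counts. Of the 7 members 5 passed, and Parp14 and Parp12 did not. The fit was tested on simulated data. Log2 ratios used log2 CPM with a prior count of 2, which shrinks those of low genes, and two-sided permutation tests. No 2 libraries of a group agreed within sampling noise.

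The members and gene lists were chosen with earlier results of these data known. Genes named outside the members came from these lists, from the 8 genes most like the inducible members over untreated libraries, and from neighbours on chromosome 16. Alternatives were DESeq2 1.42.0, limma-voom 3.58.1, other scalings and filters, thinning to 818619 UMIs, a run term, sums of runs and leaving out runs. Depth was 818619 to 5039721 UMIs per library, so counting error limits Parp14 and Parp12 most. Of the gene lists 1 gene, and the correlations and ratios with it, are not reported here, and adjustment of the correlations is over the 6 left. Promoter windows came from RefSeq and positions from GENCODE M21.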

Additional observations from a re-analysis of the deposited data

How the results depend on the processing

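Parp9 was higher with azacitidine in all 20 alternatives (log2 fold change 0.28 to 0.80) and called in 13, and Dtx3l was higher in all 20 (0.24 to 0.77) and called in 8. The threshold of 0.01 used the main fit itself, and the other alternatives reused the same libraries. The shared direction is therefore no independent support. The highest values, 0.80 and 0.77, came from spike-in scaling, where the median log2 fold change over all tested genes was 0.31. Of the 5 tested members 2 were called by edgeR, where 5.65% of all 9344 tested genes were called in either direction. The call of Parp9 was lost with thinned libraries (0.39), sums of runs with a run term (0.51), sums of runs alone (0.51), limma-voom with a correlation within runs (0.56), without the 5 libraries that stood apart (0.36), without numbers 1 to 4 (0.28), and on the mean of 10 further thinnings chosen after the data were seen (0.44, called in 4 of 10). The call of Dtx3l was lost at a mean of at least 5 UMIs (0.46), with thinned libraries (0.24), sums with a run term (0.41), sums alone (0.42), limma-voom with a correlation within runs (0.43), without the 5 libraries (0.32), at a threshold of 0.01 (0.46) on further thinnings (0.48, tested in 2), and whichever of the 4 runs was left out. Leaving out each run gave 0.28 to 0.66 for Parp9 and 0.33 to 0.52 for Dtx3l. The number of called members was 0 with thinned libraries, with sums of runs with or without a run term, with the correlation within runs and without the 5 libraries. It was 1 at a mean of at least 5 UMIs and at a threshold of 0.01, and 0 to 1 when a run was left out. Over all genes 528 were called, against 897 with the replicate block, 852 by DESeq2, 860 without a filter, 250 after thinning, 993 with a run term, 108 with sums of runs, 174 with the correlation within runs, 296 at a threshold of 0.01 and 322 to 574 with a run left out. With spike-in scaling 354 were higher and 1 lower, against 341 and 187, and of called genes 83.5% were higher without a filter and 74.2% by DESeq2, against 64.6%. Parp1 turned to 0.11 with spike-in scaling. Parp2, near 0, turned to -0.0047 by DESeq2, -0.0031 by limma-voom, -0.0033 at a mean of at least 5 UMIs, -0.0029 with the correlation within runs, -0.049 without numbers 5 to 8, -0.011 without numbers 13 to 16 and -0.012 on further thinnings. Of the ratio pairs 7 were called, against 9 when permuted within runs (Parp14 to Parp2 and Parp12 to Parp1 added), 8 with a prior count of 0.5 (Parp14 to Parp2 added), 0 after thinning and 3 without numbers 1 to 4. With a prior count of 0.5 the difference of Parp9 to Dtx3l was -0.0075, of Parp9 to Parp12 -0.062 and of Dtx3l to Parp12 -0.054, and without numbers 1 to 4 that of Parp9 to Dtx3l was -0.11. Of the 6 correlations 0 were called in each setting. With run means subtracted r turned to -0.14 (untreated) and -0.24 (treated) for Dtx3l with Parp14 and to -0.057 for Parp9 with Dtx3l (treated). Without the 2 farthest libraries it was 0.10 for Parp9 with Parp14 (untreated), and -0.24 (untreated) and -0.18 (treated) for Dtx3l with Parp14. The cause of these changes was not tested.

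The labels do not say whether equal replicate numbers pair the samples, and the main fit did not pair them. Deviations of libraries with the same number had correlations of -0.29 to 0.83, over 0.1 in 12 of 16, and 4 of 16 libraries were most like their own number. With the replicate block 897 genes were called, and Parp9 (0.50) and Dtx3l (0.46) kept their calls and Parp10 (0.20) had none. Depth limits Parp14 and Parp12, with a median of at most 11.5 UMIs per library.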
